A study of Rattus norvegicus with 5 samples.

Results

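Vomeronasal receptor genes were taken as every gene symbol that begins with Vom1r or Vom2r followed by a number and that is named by at least 1 region in the authors' lists of DNA enriched for N6-methyladenine (6mA). The annotation beside each region names the genes whose promoter, 2 kb upstream, exon, intron, 2 kb downstream or gene body it touches. Of 23553 gene symbols named in the 9 lists, 80 were vomeronasal receptor genes, 22 of them type 1 receptors (V1R) and 58 type 2 receptors (V2R).

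Rat genomic DNA was sonicated, ligated to adapters, denatured and enriched with an antibody against 6mA, a methylated form of adenine, and then sequenced. There was 1 immunoprecipitated library each of Astrocytes, Neurons and neural stem cells (NSCs), the last from SCR022, a line of adult rat hippocampal stem cells. Input libraries without enrichment were samples for Neurons and NSCs, and no treatment or genotype is labelled for any library. The series title concerns N6amt1, a methyltransferase, and 6mA at Txnrd3, a thioredoxin reductase gene, in hippocampal neurogenesis. The labels do not say how Neurons and Astrocytes were obtained, and enrichment of genomic DNA does not measure expression, so the cell types were not checked against markers. The immunoprecipitated libraries held 15767015 reads in Astrocytes, 16095308 in Neurons and 15760246 in NSCs, of which 13866225, 13930646 and 13785430 mapped uniquely. With 1 library per cell type there was no spread between replicates to hold a difference against, and no test between cell types was made. No other measure of 6mA in these regions was used.

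Vomeronasal receptors are G protein-coupled receptors of the vomeronasal organ, the sensory epithelium of the nose that detects pheromones. V1R proteins are short receptors encoded by a single coding exon, and are found with the G protein alpha subunit Gnai2 in apical sensory neurons. V2R proteins have a long extracellular domain encoded by several exons and are found with the G protein alpha subunit Gnao1 in basal sensory neurons. Both signal through phospholipase C and the cation channel Trpc2. The genes lie in clusters of similar copies, and they are known as genes of sensory neurons rather than of hippocampal cells.

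Peaks classed as promoter were listed in all 3 cell types for Vom1r101, Vom1r96 and Vom2r55. Their upstream sequence is shown with that of Vom1r41, the V1R gene whose peak was classed as promoter and exon together, and of Vom1r90, the receptor gene next to Txnrd3. Each line holds the 250 bases before the annotated start, 5′ to 3′ on the gene's strand, from RefSeq in the GRCr8 assembly. The sources used here do not give the build of the deposited files, so the peaks were not placed on these bases. Most of the members' promoter peaks were also classed as 2 kb upstream, so a promoter peak may lie outside the 250 bases shown. Capitals mark the words searched on both strands, which were GATC and a group of pentamers made up of the word CAGGC, the word CAGGT, the word GAGGC and the word GAGGT.
Vom1r101 (chr4:124057462-124057711, - strand): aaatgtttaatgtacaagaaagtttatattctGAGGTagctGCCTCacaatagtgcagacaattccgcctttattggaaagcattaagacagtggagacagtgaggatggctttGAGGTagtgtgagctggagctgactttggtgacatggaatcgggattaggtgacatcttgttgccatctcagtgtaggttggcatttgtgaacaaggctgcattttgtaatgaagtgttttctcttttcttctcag
Vom1r96 (chr4:123891269-123891518, + strand): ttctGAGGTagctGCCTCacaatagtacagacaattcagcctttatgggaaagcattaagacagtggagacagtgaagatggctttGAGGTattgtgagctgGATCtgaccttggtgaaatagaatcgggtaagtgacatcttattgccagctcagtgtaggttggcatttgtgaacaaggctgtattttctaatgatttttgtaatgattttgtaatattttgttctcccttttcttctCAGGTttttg
Vom2r55 (chr7:13674344-13674593, + strand): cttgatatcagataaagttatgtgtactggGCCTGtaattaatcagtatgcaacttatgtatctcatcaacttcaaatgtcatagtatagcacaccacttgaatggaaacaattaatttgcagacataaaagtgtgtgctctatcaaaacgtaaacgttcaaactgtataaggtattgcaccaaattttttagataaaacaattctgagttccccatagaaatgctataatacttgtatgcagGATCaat
Vom1r41 (chr1:80841775-80842024, - strand): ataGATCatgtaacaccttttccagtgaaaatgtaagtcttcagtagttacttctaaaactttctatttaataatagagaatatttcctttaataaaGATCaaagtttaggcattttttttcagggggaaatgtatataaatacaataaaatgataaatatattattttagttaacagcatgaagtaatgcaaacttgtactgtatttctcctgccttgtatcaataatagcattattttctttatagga
Vom1r90 (chr4:123705277-123705526, - strand): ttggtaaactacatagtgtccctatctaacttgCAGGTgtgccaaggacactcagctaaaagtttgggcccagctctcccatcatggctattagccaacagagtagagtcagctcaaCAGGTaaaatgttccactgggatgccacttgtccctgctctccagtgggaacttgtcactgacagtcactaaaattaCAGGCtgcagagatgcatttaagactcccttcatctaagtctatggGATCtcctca

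The Vom1r101 and Vom1r96 windows share an identical run of 33 bases. GATC was absent from the Vom1r101 window, occurred 1 time each in the Vom1r96, Vom2r55 and Vom1r90 windows, and occurred 2 times in the Vom1r41 window. The pentamers, with their reverse complements, occurred 3 times before Vom1r101, 4 times before Vom1r96, 1 time before Vom2r55, 0 times before Vom1r41 and 3 times before Vom1r90. Windows could be matched for 74 of the 80 members. GATC was in 50% of these 74 windows, against 40.4% of the windows of 27457 genes of the same table. A pentamer was in 79.7% of the members' windows, against 90.8% of all windows. The median G+C content was 38% in the members' windows and 52% over all genes, and the shares of words were not adjusted for it.

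Vomeronasal receptor genes held 6mA peaks in every cell type, and the share of them with a peak was near that of all named symbols. Peaks over input named a member 107 times among 116091 peaks in Astrocytes, 126 times among 137579 in Neurons and 114 times among 121816 in NSCs. These were 0.0922% of the Astrocyte list (exact Clopper-Pearson 95% interval 0.0755% to 0.111%), 0.0916% of the Neuron list (0.0763% to 0.109%) and 0.0936% of the NSC list (0.0772% to 0.112%). The intervals cover counting error only. Peaks that name any gene numbered 45012 in Astrocytes, 53119 in Neurons and 46088 in NSCs. Numbers of peaks per gene were not compared with those of other genes. A peak named 57 members in Astrocytes, 56 in Neurons and 56 in NSCs, or 71.25%, 70% and 70% of the 80. Over all 23553 named symbols the shares with a peak were 66.1% in Astrocytes, 72.5% in Neurons and 66.7% in NSCs. All these members are named in some list by the rule, so their shares describe how the lists divide them and are not shares of the family.

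Most V2R genes had peaks in all 3 cell types, as did many other genes of their length, and V1R genes were mostly listed in fewer. Of the 58 V2R genes, 32 (55.2%) had a peak in all 3 cell types, 14 in 2 and 12 in 1. Of 3716 other named symbols of V2R length 49.4% had a peak in all 3 cell types, and of all 23553 symbols 48.9% did. Of the 22 V1R genes, 3 had a peak in all 3 cell types (Vom1r36, Vom1r96 and Vom1r101), 8 in 2 and 8 in 1. The 3 were 13.6% of the V1R genes, against 20.3% of 59 other named symbols of V1R length. Both of these length sets leave out vomeronasal receptor genes only, not other chemoreceptor genes. The other 3 V1R genes, Vom1r56, Vom1r63 and Vom1r90, had no peak over input and were named by regions of the comparison lists only. V2R genes took 94 of the members' 107 peaks in Astrocytes, 114 of 126 in Neurons and 101 of 114 in NSCs.

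**Figure D1:**
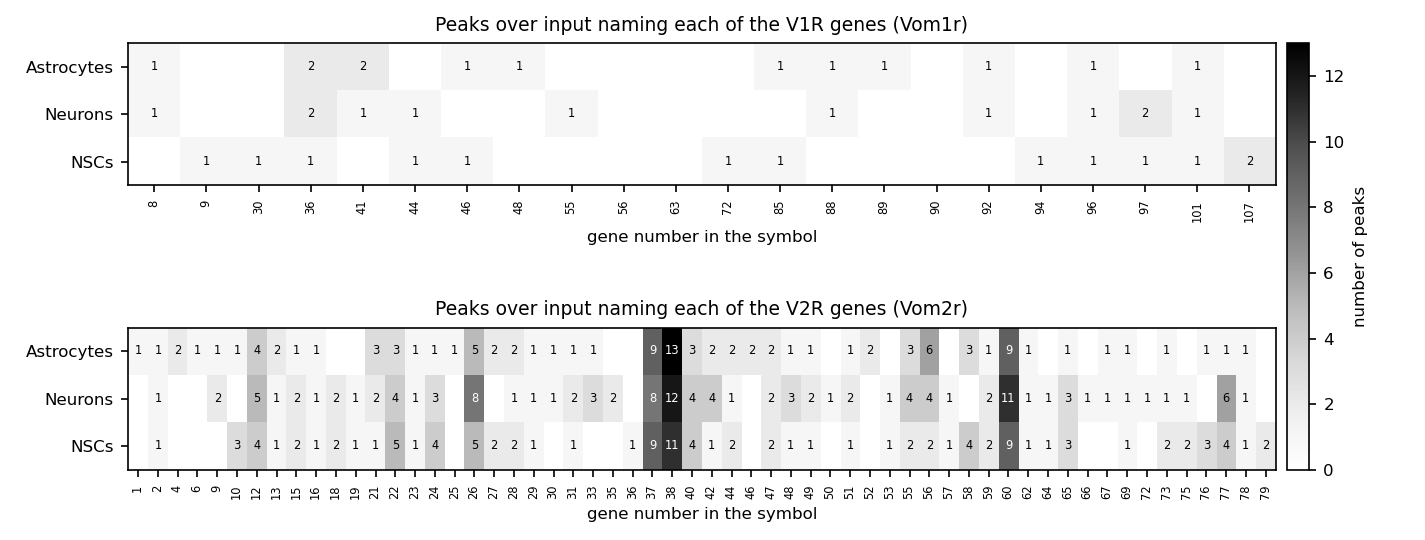
Number of peaks over input (grey scale and printed count) naming each V1R gene (upper panel) and each V2R gene (lower panel), with the gene number of the symbol on the x axis and 1 row per cell type; empty cells hold 0 peaks. Vom2r38 has 13, 12 and 11 peaks in Astrocytes, Neurons and NSCs, while no V1R gene has more than 2 in any cell type.

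Gene length differs between both families, and the share of each family with a peak stood near that of other genes of the same GRCr8 length. The RefSeq annotation has 105 protein-coding V1R genes with a median length of 0.948 kb and 78 protein-coding V2R genes with a median of 28.1 kb. Among the V1R genes, 9.52% had a peak in Astrocytes (95% interval 4.66% to 16.8%), 9.52% in Neurons (4.66% to 16.8%) and 11.4% in NSCs (6.05% to 19.1%). The 146 other genes within the middle of the V1R length range (its quartiles, 0.918 to 1.12 kb) had a peak in 10.3%, 11.0% and 8.90% of cases in Astrocytes, Neurons and NSCs. Olfactory and other chemoreceptor genes were left out of this set and of the set of V2R length below. Olfactory receptor genes, 1278 in the annotation with a median of 0.942 kb, had a peak in 13.2% in Astrocytes, 16.3% in Neurons and 14.4% in NSCs. Among the V2R genes, 59.0% had a peak in Astrocytes (47.3% to 70.0%), 57.7% in Neurons (46.0% to 68.8%) and 55.1% in NSCs (43.4% to 66.4%). The 4819 other genes between the quartiles of V2R length (17.3 to 42.6 kb) reached 54.6% in Astrocytes, 59.8% in Neurons and 54.5% in NSCs. Over all 20950 protein-coding genes of the annotation the shares were 45.8%, 49.1% and 45.6%. V2R genes of 10 to 20 kb (20 genes) reached 55%, 60% and 45%, against 36.5%, 40.6% and 35.9% of all genes of that length. Those of 20 to 40 kb (27 genes) reached 51.9%, 51.9% and 55.6%, against 56.0%, 61.5% and 55.9%. Gene models behind the peak lists can differ in length from GRCr8. Regions naming Vom2r12 spanned 87.4 kb against a GRCr8 length of 22.7 kb, and those naming Vom2r37 124 kb against 61.7 kb.

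The V1R shares were below that of all protein-coding genes in each cell type, and the interval of each held the share of genes of V1R length. No peak in any cell type was listed for 87 of the 105 V1R genes (82.9%), against 82.9% of other genes of V1R length. The same held for 21 of the 78 V2R genes (26.9%), against 26.6% of other genes of V2R length and 41.4% of all protein-coding genes. At a score of at least 100 the V1R shares were 1.90%, 0.952% and 3.81% in Astrocytes, Neurons and NSCs, and the V2R shares 25.6%, 32.1% and 35.9%. Shares of other genes at this score were not counted. Of the members' peaks, 30.8% in Astrocytes, 38.9% in Neurons and 39.5% in NSCs reached this score, against 42.2%, 42.9% and 42.1% of all peaks. A gene that the authors' annotation does not hold cannot be told apart from a gene without a peak.

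**Figure D2:**
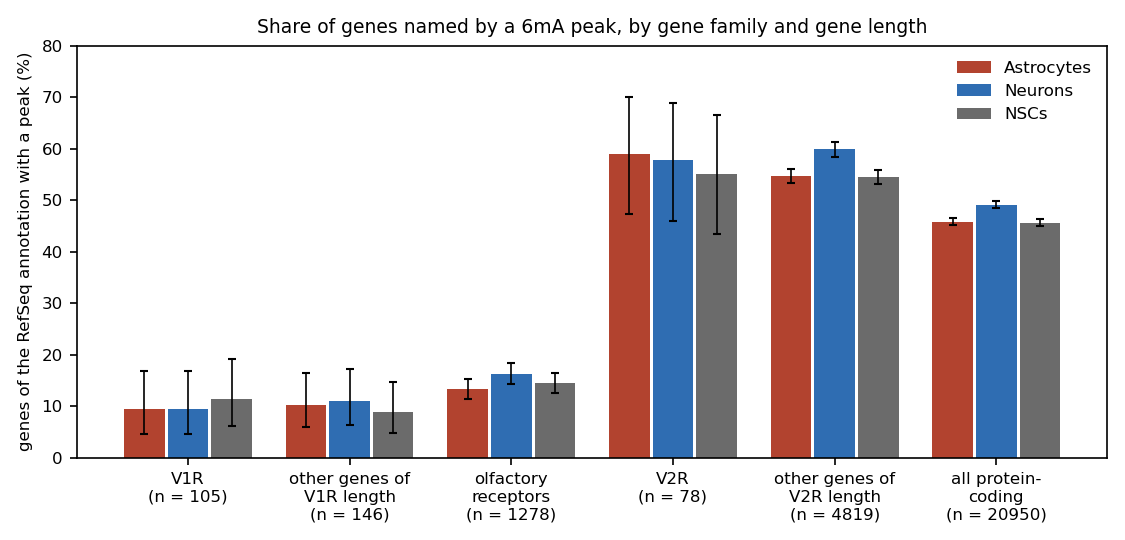
Percent of protein-coding RefSeq genes named by at least 1 peak over input, in Astrocytes, Neurons and NSCs (bars, from left to right in each group), with exact 95% intervals of counting error; n is the number of genes. V1R genes stand at 9.52% to 11.4% and V2R genes at 55.1% to 59.0%, each beside other genes of the same length range.

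The authors' deposited table of gene ontology terms reports fewer genes with a peak in the term pheromone receptor activity than its expected number. For Astrocytes the authors' deposited table has hits in 12 of the term's 104 genes against 41.9 expected, with an adjusted p of 0.000908. The authors' deposited table gives 12 against 46.2 expected in Neurons (adjusted p 0.000158) and 13 against 42.2 in NSCs (adjusted p 0.00178). The genes the authors' deposited table lists under this term were 10 V1R and 1 V2R gene in Astrocytes, 10 and 1 in Neurons, and 12 and 1 in NSCs. Most of the listed genes were thus V1R genes, whose shares beside genes of the same length are given above.

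Peaks lay in different places in both families. Introns held 86.2% of the V2R peaks in Astrocytes, 91.2% in Neurons and 88.1% in NSCs, against 88.2%, 87.7% and 88.3% of all peaks that name any gene. V1R peaks lay beside the genes: of 13 in Astrocytes 6 were classed as promoter and 6 as downstream 2 kb, of 12 in Neurons 4 and 6, and of 13 in NSCs 5 and 7. Gene bodies of V1R genes held 2 peaks in Astrocytes, 2 in Neurons and 1 in NSCs. Of V1R genes in the annotation, 1.90%, 1.90% and 0.952% had a peak in the gene body. Other genes of V1R length were near this, at 2.05%, 0.685% and 2.05%, as were olfactory receptor genes, at 1.72%, 2.43% and 2.43%. Promoter and downstream shares of other genes of that length were not counted. The Astrocyte peak of Vom1r41 at chr1:67743367-67743895 in the files' coordinates was the only V1R peak classed as exon (fold 5.6, score 62.4). The downstream 2 kb class held 14.0% of all members' peaks in Astrocytes, 9.52% in Neurons and 12.3% in NSCs, against 6.73%, 6.80% and 6.67% of all peaks that name a gene. For V2R genes alone it held 9.57%, 5.26% and 6.93%. No member's peak touched a CpG island or its shore, which for the 107, 126 and 114 peaks has an upper 95% bound of 3.39%, 2.89% and 3.18%. Shares over all peaks that name a gene lay within these bounds, at 0.302%, 0.410% and 0.306% for islands and 1.81%, 1.97% and 1.72% for shores.

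Members' peaks were of ordinary height but seldom among the strongest. Fold here is the authors' own enrichment of the library over its input at a peak, and the score is 10 times the −log10 p of their peak caller. The median fold of the members' peaks was 11.1 in Astrocytes, 11.4 in Neurons and 12.5 in NSCs, against 12.3, 12.1 and 12.2 over all peaks. A fold of at least 20 was reached by 9.35% of the members' peaks in Astrocytes, 11.9% in Neurons and 9.65% in NSCs, against 20.5%, 20.6% and 18.8% of all peaks. The largest value belonged to Vom2r60 in all 3 lists, and 3633 peaks of the Astrocyte list, 6811 of the Neuron list and 10133 of the NSC list had a larger fold.

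Vom2r60, a V2R gene with a reference length of 106 kb, carried 9 peaks in Astrocytes, 11 in Neurons and 9 in NSCs. Its strongest lay in an intron at chr12:4399939-4400488, with a fold of 49.9 in Astrocytes, 41.4 in Neurons and 29.7 in NSCs. Another intronic peak at chr12:4345496-4346432 had folds of 31.2 in Astrocytes, 29.9 in Neurons and 16.2 in NSCs. Both were listed in all 3 cell types, although folds of separate lists are relative to separate inputs and were not tested against each other.

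The strongest V1R peak lay within 2 kb downstream of Vom1r36 at chr1:72181050-72181696. Its fold was 40.7 in Astrocytes, 31.4 in Neurons and 15.0 in NSCs. It was the only V1R peak above a fold of 20 in Astrocytes and in Neurons, and none reached 20 in NSCs.

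Vom2r65 was strong in Neurons. Over its exon and intron at chr10:111283888-111284426 no peak was listed in Astrocytes, and the peak had a fold of 41.1 in Neurons and 10.3 in NSCs. A neighbouring intronic peak at chr10:111260942-111261659 was listed in all 3 cell types with folds of 10.2 in Astrocytes, 15.5 in Neurons and 10.3 in NSCs. Vom2r29 had its single peak in all 3 lists with folds of 21.6 in Astrocytes, 36.2 in Neurons and 18.0 in NSCs. The largest fold of Vom2r28 was 22.9 in Astrocytes, 31.4 in Neurons and 17.6 in NSCs, and that of Vom2r24 was 11.5, 30.4 and 15.0. Vom2r44 and Vom2r47 were largest in Astrocytes, at 26.7 and 25.5, against 10.9 and 8.59 in Neurons and 16.6 and 17.4 in NSCs. Vom2r22 reached 15.3 in Astrocytes, 25.4 in Neurons and 27.6 in NSCs.

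**Figure D3:**
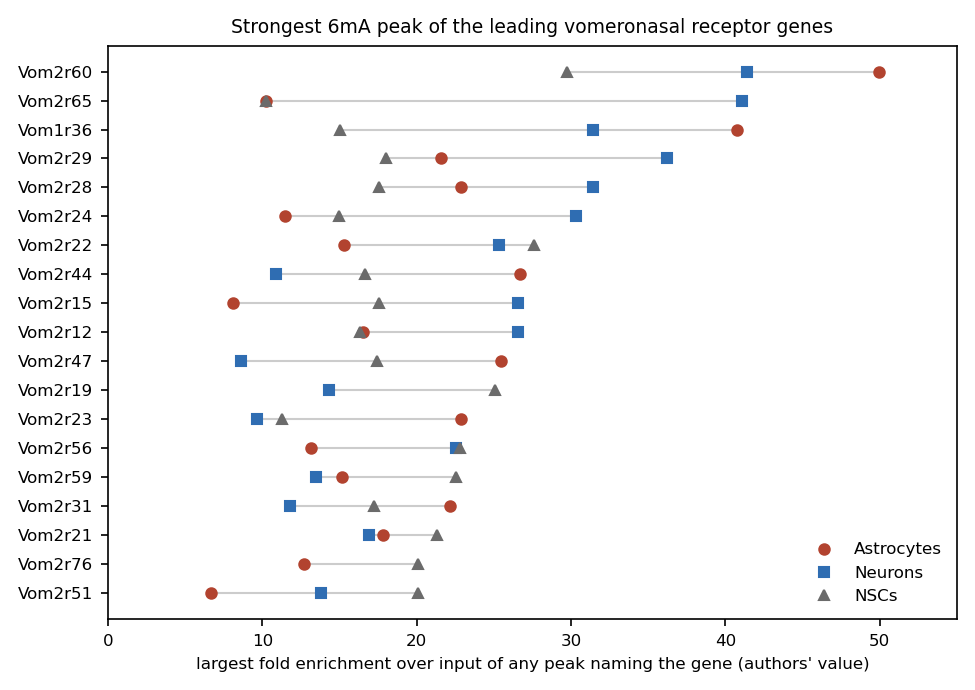
Largest authors' fold enrichment over input (x axis) among the peaks naming each of the 19 members that lead a list (y axis), in Astrocytes (circles), Neurons (squares) and NSCs (triangles); a missing symbol means no peak. Vom2r60 reaches 49.9, 41.4 and 29.7, and Vom2r65 has 10.2 in Astrocytes, 41.1 in Neurons and 10.3 in NSCs.

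The 8 genes with most peaks over the 3 lists together were V2R genes of chromosomes 1, 7, 8 and 12. Vom2r40 is among them by symbol order only, since Vom2r77 on chromosome 9 also had 11 peaks. Vom2r38 had 13 peaks in Astrocytes, 12 in Neurons and 11 in NSCs, and Vom2r37 had 9, 8 and 9. Both genes were named together by 9, 8 and 9 of those peaks, so their counts are mostly 1 set of peaks. The regions naming Vom2r38 spanned 218 kb in the files, against a length of 61.5 kb in GRCr8. Vom2r26 had 5 peaks in Astrocytes, 8 in Neurons and 5 in NSCs, Vom2r12 had 4, 5 and 4, Vom2r22 had 3, 4 and 5, and Vom2r56 had 6, 4 and 2. The broadest peak of any member in each cell type lay in introns of Vom2r37 and Vom2r38 and over an exon of Vom2r38, at chr1:99034334-99036458 in Astrocytes, chr1:99033065-99036580 in Neurons and chr1:99033059-99036432 in NSCs. It was 2125 bp wide in Astrocytes, 3516 bp in Neurons and 3374 bp in NSCs, with folds of 3.92 in Astrocytes, 4.63 in Neurons and 4.37 in NSCs. Members' peaks had a median width of 418 bp in Astrocytes, 433 bp in Neurons and 462 bp in NSCs.

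Promoter peaks were listed in all 3 cell types at 2 places. The Vom1r101 peak at chr4:119399572-119399921 had a fold of 19.1 in Astrocytes, 12.1 in Neurons and 10.6 in NSCs. The Vom2r55 peak at chr7:17060631-17061333 had 13.8 in Astrocytes, 10.4 in Neurons and 13.8 in NSCs. Vom1r96 had a promoter peak in each cell type as well, but at chr4:121869996-121870249 in Astrocytes (fold 11.5) and at chr4:121868711-121869249 in Neurons (9.08) and NSCs (8.36), so the interval was not shared by all 3. Peaks over their own exons were listed in all 3 cell types for Vom2r12, Vom2r15 and Vom2r38.

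Within each list, about equal parts of the members' peaks met a peak of both other cell types and of neither. With an overlap of at least 1 bp, 36.4% of the Astrocyte peaks (95% interval 27.4% to 46.3%) met a peak of both other cell types, 31.0% of the Neuron peaks did (23.0% to 39.8%), and 32.5% of the NSC peaks did (24.0% to 41.9%). Over all peaks of each list the shares were 45.8%, 38.6% and 43.6%. Weighted to the score distribution of the members' peaks, the shares over all peaks were 35.8% in Astrocytes, 31.8% in Neurons and 39.7% in NSCs, and each lies inside the members' interval. Peaks met by neither other list made up 33.6% in Astrocytes, 32.5% in Neurons and 35.1% in NSCs, against 29.2%, 36.1% and 32.1% of all peaks, or 35.5%, 40.0% and 33.6% when weighted to the members' scores.

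Merged over the cell types, the members' peaks formed 210 separate places. Counting peaks that name a member, 38 of these places (18.1%) were listed in all 3 cell types, 54 (25.7%) in 2 and 118 (56.2%) in 1. By place, single-list places thus outnumbered those in all 3, since a shared place counts in every list in the shares above. Places of all peaks were not merged in this way, so no share over all peaks stands beside these. Counting any overlapping peak, the numbers were 40, 53 and 117, since peaks at 1 place each of Vom1r48 and Vom2r15 name a member in some lists only. The median of the largest fold was 19.9 for the 38 places, 13.8 for the 54 and 10.2 for the 118. At a place listed in more cell types the largest fold is taken over more peaks, so part of this rise is built in. Since a weak peak can miss the authors' minimum score of 50 in another library, absence from a list is not absence of enrichment.

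The authors also compared the immunoprecipitated libraries with each other and listed regions higher in either one. Between Neurons and NSCs the members were named evenly in both directions. There were 28 regions in 24 members higher in Neurons and 24 regions in 21 members higher in NSCs. Members named were 30% and 26.25% of the 80, against 34.6% of all symbols with a region higher in Neurons and 30.3% with one higher in NSCs. The share of members' regions that were higher in Neurons was 53.8% (39.5% to 67.8%), and over all regions it was 53.8%.

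Regions higher in Astrocytes were fewer. Against NSCs, 11 regions in 11 members were higher in Astrocytes and 27 regions in 21 members were higher in NSCs. Over all symbols, 26.6% had a region higher in Astrocytes and 33.1% one higher in NSCs, and the members reached 13.75% and 26.25%. The share of regions higher in Astrocytes was 28.9% (15.4% to 45.9%) for the members and 40.3% for all regions. Against Neurons, 12 regions in 10 members were higher in Astrocytes and 33 regions in 23 members were higher in Neurons. Members named were 12.5% and 28.75%, against 21.4% and 38.9% of all symbols. The share of regions higher in Astrocytes was 26.7% (14.6% to 41.9%) for the members and 29.5% for all regions. In each of the 3 pairs the interval of the members held the share over all regions, and the lower share of regions higher in Astrocytes was seen over all regions too. In each of the 6 lists the share of members named was below that of all symbols, with gene length not matched. At a score of at least 100 only 0 to 3 members' regions per direction were left. The 3 pairs share libraries and are not independent of each other.

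**Figure D4:**
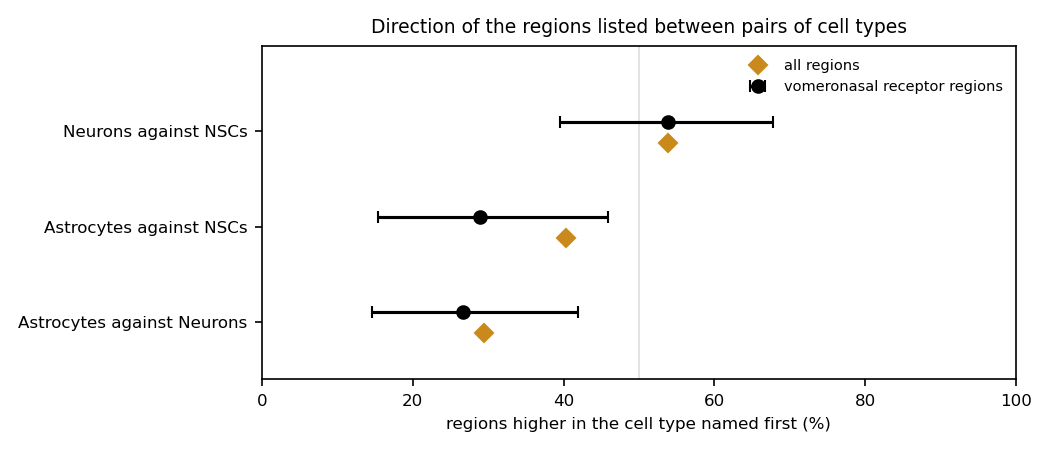
Percent of regions listed as higher in the cell type named first (x axis) for the 3 pairs of cell types (y axis), for vomeronasal receptor regions (circles with exact 95% intervals of counting error) and for all regions (diamonds). Values for the members are 53.8%, 28.9% and 26.7%, beside 53.8%, 40.3% and 29.5% for all regions.

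Of the members' regions, 75% (Neurons over NSCs) to 88.9% (NSCs over Astrocytes) overlapped a peak over input of the library in which they were higher. The same share over all regions of these lists was not counted, so it is not known whether this is ordinary. The region with the largest score lay over the exon and intron of Vom2r65 described above. It was higher in Neurons than in Astrocytes with a fold of 19.4 and a score of 231, and higher in Neurons than in NSCs with a fold of 7.27 and a score of 75.0. A narrower interval there was also higher in NSCs than in Astrocytes, with a fold of 11.3 and a score of 74.0. For this exon the 3 pairs thus gave the order Neurons, NSCs, Astrocytes from high to low. These folds are between 2 single libraries.

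Other leading regions were spread over both families. Vom1r88 had a region within 2 kb downstream that was higher in Neurons than in NSCs, with a fold of 18.5. Vom2r38 had 1 within 2 kb downstream at chr1:98914411-98914697 that was higher in NSCs than in Neurons, with a fold of 16.0. The same place was higher in NSCs than in Astrocytes with a fold of 13.4. An intron of Vom2r51 at chr4:156520119-156520435 was higher in NSCs than in Astrocytes with a fold of 19.9. The promoter of Vom2r67 was higher in Astrocytes than in Neurons with a fold of 13. Vom1r41, at its promoter and exon, was higher in Astrocytes than in NSCs with a fold of 9.3 and higher in Astrocytes than in Neurons with a fold of 5.27. Vom1r72, at its promoter, was higher in NSCs than in Neurons with a fold of 11.1 and higher in NSCs than in Astrocytes with a fold of 10.6.

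Some members held regions of both directions, in shares at or below those of all symbols. They numbered 10 between Neurons and NSCs (12.5% of the 80, against 13.2% of all symbols), 3 between Astrocytes and NSCs (3.75% against 11.7%) and 5 between Astrocytes and Neurons (6.25% against 10.7%). An intron of Vom2r40 at chr1:148935826-148936314 was higher in Neurons than in Astrocytes with a fold of 15.2 and higher in Neurons than in NSCs with a fold of 7.94. In the same gene, an intron at chr1:148933220-148933849 was higher in NSCs than in Neurons with a fold of 5.91, and the promoter was higher in Astrocytes than in Neurons with a fold of 8.31.

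Opposite regions could lie side by side, a pattern that was counted after its values were seen. Between Neurons and NSCs, 7 of the 52 members' regions (13.5%) had a region of the other direction within 1 kb, against 933 of 59847 over all regions (1.56%). Against NSCs, 1 of 38 members' regions of the Astrocyte comparison did (2.63%), where the share over all regions was 1.45%. None of 45 did between Astrocytes and Neurons, with 1.28% over all regions. The 7 regions between Neurons and NSCs are not separate events. They are both sides of 1 pair each in Vom2r26, Vom2r40 and Vom2r77, and 1 side of a pair beside Vom1r90. Density of regions was not matched to that of all regions. In Vom2r26, a region at chr1:63544147-63544924 was higher in Neurons with a fold of 7.27, and 47 bp away the region at chr1:63543537-63544099 was higher in NSCs with a fold of 7.52. In Vom2r77, a region at chr9:7795818-7796255 was higher in Neurons with a fold of 15.6, and 425 bp away another at chr9:7796681-7796986 was higher in NSCs with a fold of 9.6. Vom2r40 had such a pair 913 bp apart.

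**Figure D5:**
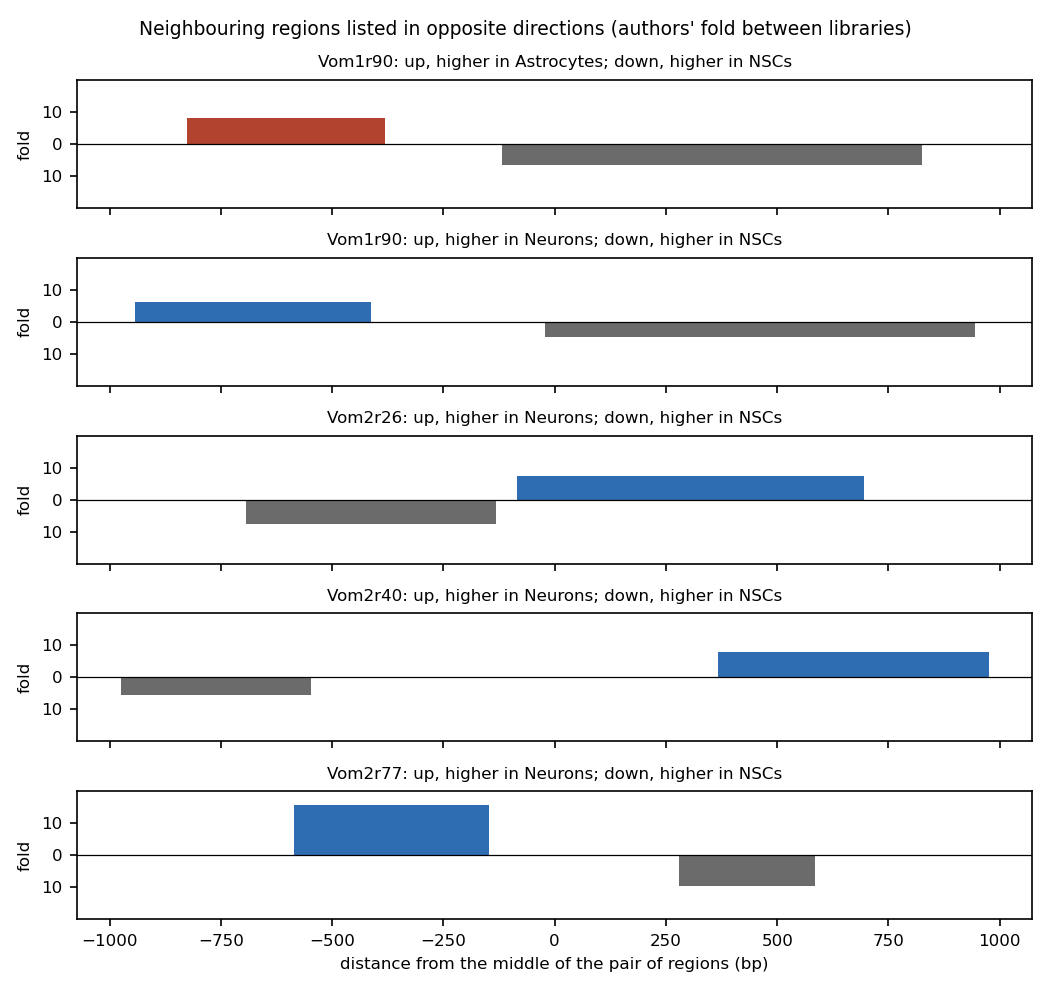
Pairs of neighbouring regions listed in opposite directions, with the distance from the middle of the pair in bp (x axis) and the authors' fold between both libraries (y axis, upward bars for the cell type named first in the panel title, downward bars for the other). Gaps between the regions are 47 bp in Vom2r26, 263 and 391 bp beside Vom1r90, 425 bp in Vom2r77 and 913 bp in Vom2r40.

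A cluster of V1R genes lies next to Txnrd3, the gene of the series title, and its members were looked at after their position was seen. In the files' coordinates, regions naming Txnrd3 ended at chr4:121646287, and the first region naming Vom1r90 began 39.1 kb beyond. Regions of Vom1r92, Vom1r94, Vom1r96 and Vom1r97 followed at 113, 162, 222 and 252 kb. In GRCr8 Vom1r90 is likewise the nearest protein-coding gene on that side of Txnrd3. The promoter of Vom1r90 held a region higher in Astrocytes than in NSCs with a fold of 8.25 (score 57.8) and 1 higher in Neurons than in NSCs with a fold of 6.27 (score 52.3), and no peak over input. Just beyond both, at 263 and 391 bp, lay regions higher in NSCs with folds of 6.54 and 4.87, which name no vomeronasal receptor gene. Vom1r97 had a promoter region higher in Neurons than in NSCs with a fold of 10.3, and a downstream region higher in NSCs than in Neurons with a fold of 8.9. The same downstream place was higher in NSCs than in Astrocytes with a fold of 10.6 (score 77.3). Vom1r96 had a promoter region higher in NSCs than in Astrocytes with a fold of 5.49 (score 51.9). Both comparisons against NSCs use the same NSC library.

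Genes that act with the receptors were described from lists of signal transduction, neuron development and pheromone carrier genes. Over all protein-coding genes 45.8% had a peak in Astrocytes, 49.1% in Neurons and 45.6% in NSCs, and longer genes had one more often, so gene length is given with each list. Of 19 signal transduction genes, with a median length of 65.6 kb, 11 had a peak in Astrocytes, 12 in Neurons and 10 in NSCs. Gnao1, the G protein subunit of V2R neurons, spans 158 kb and had 4 peaks in Astrocytes, 7 in Neurons and 3 in NSCs, with largest folds of 44.9, 62.1 and 36.7. Gnai2, the subunit of V1R neurons, had no peak listed in Astrocytes, 1 in Neurons with a fold of 8.07 and none listed in NSCs. Trpc2 had 1 peak in Astrocytes with a fold of 10.3 and none listed in Neurons or NSCs. Of 13 genes of vomeronasal neuron development, with a median length of 115 kb, 8 had a peak in Astrocytes, 10 in Neurons and 8 in NSCs. Of 13 pheromone carrier genes, with a median length of 3.57 kb over the 12 in the reference, 1 had a peak in Astrocytes, 1 in Neurons and 2 in NSCs. Mup5, a major urinary protein that carries pheromones, had 5 peaks in each cell type, with largest folds of 56.7 in Astrocytes, 38.0 in Neurons and 40.6 in NSCs. Its length in GRCr8 is 3.87 kb, and no peak was listed for Mup4, Mup18, Mup4l1, Mup4l3 or Mup4l4. Whether the Mup5 peaks draw on reads of other copies was not tested.

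The members were on 11 chromosomes of the files, with 34 of the 80 on chromosome 1 and 14 on chromosome 4. Of 79 members matched to GRCr8, 10 lay on another chromosome there than in the files. Vom2r18, Vom2r22, Vom2r23, Vom2r24 and Vom2r25 were on chromosome 8 of the files and on chromosome 1 of GRCr8, and Vom2r65 was on chromosome 10 of the files and on chromosome 1 of GRCr8. How reads that fit several near-identical receptor copies were placed is something the sources used here do not give, so a peak in 1 copy may draw on reads of another. The part of such reads in these values was not tested.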

How the data were processed

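Immunoprecipitated 6mA libraries of Astrocytes, Neurons and NSCs, 1 each, were described with the authors' lists of peaks over input and of regions between pairs of libraries. Reads were aligned with BWA, per the submitters' processing notes; the sources used here do not give the build, the annotation, the peak caller's version or the handling of multiply mapped reads. Read counts per library are those of the authors' mapping summary, in which 1 astrocyte input has no sample of its own and was not used. The deposited score equals 10 times a −log10 p and has a minimum of 50, and the deposited fold is a ratio of both libraries compared. Adjusted p-values of gene ontology terms are the authors'.

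Regions were read as deposited, leaving out 6 blank lines. Members were matched to RefSeq (GRCr8), 78 by symbol and 1 by synonym, for lengths and neighbours only; 1 (Vom1r48) had no match. Promoter sequences are RefSeq's, the first window of each gene. Overlap was at least 1 bp, and the weighted share used 10 score bins. Overlap search and exact intervals (SciPy 1.17.1) were tested on simulated data. The members, the lists and the measures were chosen with earlier results of these data known. Genes were named for the 8 largest folds per peak list, the 8 highest peak numbers, the 5 largest folds per comparison list, a promoter or exon peak in all 3 lists, or regions higher in 1 cell type against both others. Each count and share was recomputed with a score of at least 100, with a fold of at least 20 (10 between libraries), from gene bodies only, on placed chromosomes only, from regions naming no other gene, with 50% overlap, or with regions in a peak of the higher library only, as each applied.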

Additional observations from a re-analysis of the deposited data

How the results depend on the processing

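Of 210 recomputed counts and shares, 148 stayed within 1.5 times (counts) or within the interval of the reported value (shares). All 48 values on placed chromosomes, all 42 from regions naming no other gene, all 12 from regions in a peak of the higher library and all 6 with 50% overlap did so. Every member's region lay on a placed chromosome, so those 48 values could not change and say nothing of stability.

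A score of at least 100 left peaks in 23 members in Astrocytes, 27 in Neurons and 33 in NSCs, with 33, 49 and 45 peaks. V1R genes with such a peak made up 1.90% in Astrocytes, 0.952% in Neurons and 3.81% in NSCs, and V2R genes 25.6%, 32.1% and 35.9%. Promoter and upstream shares of the Neuron peaks were 0% and 0%. With this minimum set in both lists, overlap of Astrocyte with NSC peaks was 60.6% and of Neuron with Astrocyte peaks 36.7%. Members with a region, and regions, numbered 0 and 0 for Neurons over NSCs, 3 and 3 for NSCs over Neurons, 2 and 2 for Astrocytes over NSCs, 2 and 2 for NSCs over Astrocytes, 0 and 0 for Astrocytes over Neurons, and 3 and 3 for Neurons over Astrocytes.

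A fold of at least 20 left 8 members and 10 peaks in Astrocytes, 12 and 15 in Neurons, and 9 and 11 in NSCs. V1R shares were 0.952% in Astrocytes, 0.952% in Neurons and 0% in NSCs, and V2R shares 8.97%, 14.1% and 10.3%. For overlap the same minimum was set in both lists. Overlap was then 20% for Astrocyte with NSC peaks, 33.3% for Neuron with Astrocyte and 26.7% for Neuron with NSC peaks. It was 18.2% for NSC with Astrocyte and 36.4% for NSC with Neuron peaks. Each of the 10, 15 and 11 peaks met a peak of any fold in at least 1 other list. With a fold of at least 10 between libraries, members and regions numbered 12 and 12 for Neurons over NSCs, 6 and 6 for NSCs over Neurons, 2 and 1 for Astrocytes over NSCs, 10 and 11 for NSCs over Astrocytes, 2 and 3 for Astrocytes over Neurons, and 9 and 11 for Neurons over Astrocytes.

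From gene bodies only, V1R shares were 1.90% in Astrocytes, 1.90% in Neurons and 0.952% in NSCs, and 7 members with 7 regions were higher in Astrocytes than in NSCs. Stricter minimums keep fewer regions by construction, and shares of other genes were not recomputed at them. With 1 library per cell type no replicate could be left out. No paired analysis was possible because each cell type has 1 library and no test was made. The members' median score was 74.6 in Astrocytes, 84.8 in Neurons and 83.6 in NSCs, against 87.0, 88.3 and 86.8 over all peaks and a minimum of 50 in every list.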
